A study of Mus musculus with 39 samples.

Results

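Recovery of the liver transcriptome after the 10-day stressor was examined as a difference of differences, the AggE minus Ctrl change at 24 hrs minus the same change at 4 wks, with the groups taken from the sample descriptions and source names. It used 21 of the 39 mice of the series: 4 Ctrl and 5 AggE mice at 24 hrs (9 mice), and 6 Ctrl and 6 AggE mice at 4 wks (12 mice). All were male C57BL6/J mice kept in single cages, and their age is given as 5 to 6 weeks. AggE mice (aggressor-exposed) had spent 6 hrs a day, on 10 consecutive days, without food or liquid in a mesh cage inside the home cage of an SJL male, with 3 short physical contacts per session. Ctrl mice went through the same caging and deprivation with no aggressor near. Both groups met an aggressor behind a partition about 1 hr before the terminal bleed. The mice at 4 wks were therefore also older than those at 24 hrs, and each mouse was measured once, so that recovery was compared between mice and not within a mouse.

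Liver RNA was labeled with Cy5 and hybridized, with a pooled mouse reference RNA in Cy3, to 1 Agilent dual dye array per mouse. Values are normalized log2 ratios of liver to reference, so a difference of 1 is 2-fold. Hepatocyte genes marked the tissue as labeled, with 11 of 11 measured markers well above background and above the reference in all 21 livers. The arrays of the 2 times were scanned on different days and share no slide. In Cy5, 30.3% to 43.8% of probes were well above background at 24 hrs and 41.5% to 70.1% at 4 wks, so a movement of a group mean between the times cannot be told apart from the slide, the day of the scan or the age of the mice. At 24 hrs no slide held both groups, so the change between the groups at that time cannot be told apart from the slide. At 4 wks 1 slide did, with Ctrl mice 4 to 6 and AggE mouse 1, while Ctrl mice 1 to 3 lay on another slide. AggE mice 2 to 6 at 4 wks lay on slides without a Ctrl mouse of the 10-day regimen. In whole liver, fewer cells of a type and less RNA per cell cannot be told apart.

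The liver secretes acute phase proteins, a group of plasma proteins whose genes are induced by inflammatory cytokines such as IL-6 and IL-1. Serum amyloids A (Saa1, Saa2, Saa3), serum amyloid P (Apcs), orosomucoids (Orm) and lipocalin 2 (Lcn2) belong to it, and glucocorticoids enhance the induction of many of its members. Metallothioneins (Mt1, Mt2) are small cysteine-rich proteins that bind zinc and copper, and their genes respond to metals through the factor MTF1 and to glucocorticoids. PPARα, a receptor activated by fatty acids, drives the genes of fatty acid oxidation during fasting, among them Acot1 and Cyp4a10.

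The stretches of 250 bases before the gene start are shown for the serum amyloid and metallothionein genes, since they lead the results (sequences of RefSeq, GRCm38.p6, each read on the strand of its gene). Capitals mark TTNNGNAA in the Saa genes, a core of the sites bound by C/EBP factors, and TGCACNC or TGCGCNC in the Mt genes, the core of the metal response element, all sought on either strand.
Saa1 (chr7:46742981-46743230, minus strand): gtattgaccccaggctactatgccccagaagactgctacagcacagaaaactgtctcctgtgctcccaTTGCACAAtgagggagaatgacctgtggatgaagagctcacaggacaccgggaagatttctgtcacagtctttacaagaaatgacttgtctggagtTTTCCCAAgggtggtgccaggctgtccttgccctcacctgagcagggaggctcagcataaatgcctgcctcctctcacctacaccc
Saa2 (chr7:46751583-46751832, plus strand): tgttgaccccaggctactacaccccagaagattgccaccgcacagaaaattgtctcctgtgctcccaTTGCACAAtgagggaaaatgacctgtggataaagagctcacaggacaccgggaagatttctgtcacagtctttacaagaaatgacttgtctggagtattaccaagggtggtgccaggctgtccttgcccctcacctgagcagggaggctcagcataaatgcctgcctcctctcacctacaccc
Saa3 (chr7:46715677-46715926, minus strand): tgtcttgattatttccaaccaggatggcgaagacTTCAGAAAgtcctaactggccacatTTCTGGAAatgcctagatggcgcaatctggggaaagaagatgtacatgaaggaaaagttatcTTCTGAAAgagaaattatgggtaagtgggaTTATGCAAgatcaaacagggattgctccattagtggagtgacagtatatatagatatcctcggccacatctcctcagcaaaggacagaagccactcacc
Mt1 (chr8:94178839-94179088, plus strand): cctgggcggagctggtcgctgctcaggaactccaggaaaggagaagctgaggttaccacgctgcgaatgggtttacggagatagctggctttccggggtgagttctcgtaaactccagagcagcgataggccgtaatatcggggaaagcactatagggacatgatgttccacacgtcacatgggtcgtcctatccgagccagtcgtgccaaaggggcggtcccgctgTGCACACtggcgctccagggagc
Mt2 (chr8:94172368-94172617, plus strand): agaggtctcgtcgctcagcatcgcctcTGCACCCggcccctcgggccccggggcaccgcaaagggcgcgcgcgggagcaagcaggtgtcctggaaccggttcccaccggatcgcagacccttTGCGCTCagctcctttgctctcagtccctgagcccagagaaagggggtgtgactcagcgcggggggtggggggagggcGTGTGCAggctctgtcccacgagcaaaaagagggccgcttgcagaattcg
In an end-to-end alignment Saa1 and Saa2 were identical at 238 of 251 aligned positions (94.8%), against 132 of 263 for Saa1 and Saa3 (50.2%) and 129 of 268 for Mt1 and Mt2 (48.1%). The marked letters occurred 2 times in Saa1, 1 time in Saa2 and 4 times in Saa3, and 1 time in Mt1 and 3 times in Mt2. These counts cover only the 250 bases before the gene start used here, and are not counts of all sites of a gene. Such matches are frequent: TTNNGNAA was present in 36.8% and TGCACNC or TGCGCNC in 21.4% of the 32851 stretches of this length in the table. Saa1 and Saa2 are near-identical over their transcripts too, and so are the Orm genes, so their probes may share signal.

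A total of 10 of 18259 genes (0.0548%) were called for the difference of differences at 2-fold or more and an adjusted p of 0.05 or less (limma, Benjamini-Hochberg over all RefSeq probes), 9 with a higher and 1 with a lower change at 24 hrs. The 9 were Mt2, Saa1, Mt1, Saa3, Lcn2, Fgl1, Apoa4, Ifi27l2b and Apcs, and the other was Acot1. In all 10 the AggE mean moved between the times and the Ctrl mean did not pass the limits, against a background of 105 genes (0.575%) with a called movement of the AggE mean and 180 (0.986%) of the Ctrl mean. All of the 9 were called at 24 hrs, where 16 genes (0.0876%) were, and none of the 10 at 4 wks, where 22 (0.12%) were. At 24 hrs the AggE mice lay wholly outside the Ctrl range in all 10 genes (background 339 genes, 1.86%), and above it in 9 (background 200 genes, 1.1%). At 4 wks the groups overlapped in all 10, while 326 genes (1.79%) of all did not overlap. The genes were chosen on a difference made of these same values, so these counts describe them and nothing is read from the shares. With the slide as a random block (correlation 0.321 between arrays of a slide) 0 genes were called and the adjusted p of the 10 ran from 0.351 to 1, and this fit left 40 genes past 2-fold at an unadjusted p of 0.05.

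**Figure D1:**
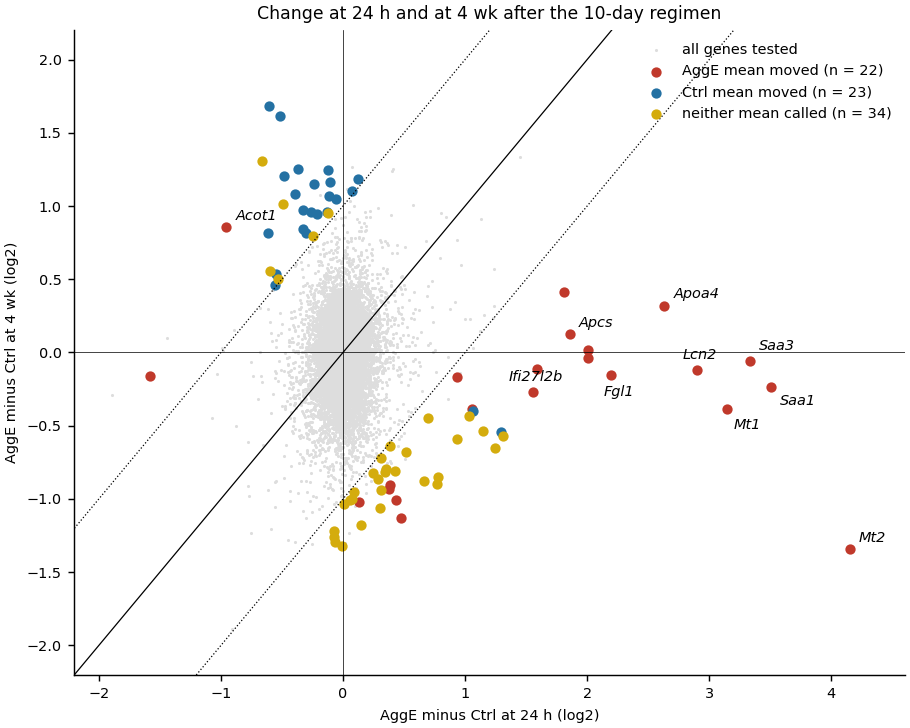
AggE minus Ctrl (log2) at 24 hrs on the x axis and at 4 wks on the y axis, for all 18259 genes in gray and for the 79 genes past 2-fold and an unadjusted p of 0.05 in the difference of differences, colored by which group mean moved between the times; the solid line marks equal changes and the dotted lines a 2-fold difference. The named genes to the right were high at 24 hrs and near 0 at 4 wks, Mt2 lay below 0 at 4 wks, and Acot1 alone of the named genes lay in the upper left.

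Among the acute phase genes, Saa1 encodes a protein carried on HDL that is released in inflammation. Its log2 ratio at 24 hrs was 5.47, 4.63, 4.74, 4.79 and 5.13 in the AggE mice and 1.60, 1.36, 1.32 and 1.50 in the Ctrl mice. At 4 wks it ran from 1.70 to 2.27 (median 2.01) in AggE and from 1.65 to 2.93 (median 2.04) in Ctrl mice. The lowest AggE mouse at 24 hrs was thus far above every other mouse, and at 4 wks the AggE mice lay within the Ctrl range. The AggE mean fell by 2.99 ± 0.39 (SE) on the log2 scale (adjusted p = 2.28e-05) while the Ctrl mean differed by 0.75 ± 0.42 (unadjusted p = 0.084). The change was 11.3-fold at 24 hrs (log2 3.50 ± 0.44, adjusted p = 1.2e-05) and log2 -0.23 at 4 wks (95% interval -1.0 to 0.53), a difference of 3.74 ± 0.57 (adjusted p = 0.00102), and the gene's other probe gave 3.18.

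Saa3, made by macrophages as well as hepatocytes, followed the same course with a wider spread in AggE mice. At 24 hrs its log2 ratio was 3.28, 2.21, 3.13, 2.73 and 1.16 in AggE and -0.57, -0.97, -0.97 and -0.79 in Ctrl mice. At 4 wks the AggE mice ran from -0.56 to -0.16 (median -0.45) and the Ctrl mice from -0.78 to -0.08 (median -0.36). AggE mouse 5 at 24 hrs was the lowest of its group and still above every Ctrl mouse. The change was 10.1-fold at 24 hrs and log2 -0.06 at 4 wks (95% interval -0.73 to 0.61), and the difference of the changes was 3.39 ± 0.51 (adjusted p = 0.00076). The AggE mean fell by 2.93 (adjusted p = 3.23e-06).

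Saa2 was not called, and its difference from Saa1 was not tested. Its values at 24 hrs, 5.09, 5.07, 4.17, 4.70 and 4.95 in AggE and 3.30, 3.71, 3.50 and 3.72 in Ctrl mice, did not overlap, but the change was 2.37-fold and the difference of the changes, 1.89 ± 0.81, did not hold after adjustment (unadjusted p = 0.0254, adjusted p = 0.514). The spot of Ctrl mouse 4 at 4 wks was an outlier spot and left out, so this value rests on 5 Ctrl mice at 4 wks. It ran from -0.55 with processed signals to 5.81 with Cy5 alone (adjusted p = 0.000113), and was 1.89 with only the 4 groups in the fit (adjusted p = 0.0419).

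Lcn2, which binds bacterial siderophores, was near background outside the AggE mice at 24 hrs. There the log2 ratio was 3.78, 1.76, 2.45, 2.84 and 1.95, against -0.39, -0.31, -0.35 and -0.33 in Ctrl mice. The range at 4 wks was from -0.90 to -0.43 in AggE and from -0.81 to -0.30 in Ctrl mice. The probe was well above background in 5 of 5 AggE and 0 of 4 Ctrl livers at 24 hrs and in 1 of 6 livers of each group at 4 wks, so AggE livers were at least 5.28-fold higher at 24 hrs, a bound against the weakest signal well above background on each Ctrl array. The adjusted p of the difference of differences was 0.000543, and the fitted log2 value ran from 1.86 to 6.36 over the alternatives.

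Apcs and Fgl1, a secreted fibrinogen-like protein of hepatocytes, had smaller changes. For Apcs the AggE mean was 2.82 ± 0.28 (SD, n = 5) at 24 hrs and 1.23 ± 0.43 (n = 6) at 4 wks, and the Ctrl mean was 0.96 ± 0.40 (n = 4) and 1.11 ± 0.47 (n = 6). The lowest AggE mouse at 24 hrs (2.48) exceeded the highest Ctrl mouse (1.48). The difference of the changes was 1.74 ± 0.33 (adjusted p = 0.0258), with the change at 4 wks at 0.12 (95% interval -0.32 to 0.56), and its call was lost under 14 of 38 alternatives. For Fgl1 the AggE mean fell from 4.62 ± 0.48 to 2.71 ± 0.68 (by 1.91, adjusted p = 0.000265), and the Ctrl means were 2.43 ± 0.82 and 2.86 ± 0.47. Its difference of changes was 2.35 ± 0.45 (adjusted p = 0.0263), a call that was kept under 19 of 38 alternatives.

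Orm3 had the same shape but did not pass adjustment for the difference (1.99 ± 0.52, adjusted p = 0.25), although its AggE mean fell by 2.51 (adjusted p = 6.78e-05) and its change at 24 hrs was 4.01-fold (adjusted p = 0.0232). Its Ctrl mice at 24 hrs ranged from 1.20 to 2.68.

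Of the metallothioneins, Mt2 had the largest difference among the called genes other than Lcn2, whose size is not ranked. Mt2 in AggE mice at 24 hrs was 1.50, 1.1, 1.35, -0.07 and -1.85, against -4.33, -3.48, -3.64 and -3.52 in Ctrl mice. At 4 wks AggE mice ran from -4.63 to -3.56 (median -4.20). Of the Ctrl mice at 4 wks, mice 1 and 4 were at -0.52 and 0.18 and the other 4 between -4.34 and -4.03. Both high Ctrl mice at 4 wks thus lay within the range of the AggE mice at 24 hrs, and they lie on different slides. The AggE mean fell by 4.62 ± 0.75 (24.5-fold, adjusted p = 0.000264). The difference of the changes was 5.49 ± 1.09 (adjusted p = 0.0319), made of 4.15 at 24 hrs and -1.34 at 4 wks (95% interval -2.79 to 0.11), or -2.92 ± 1.20 with the slide as a fixed block (adjusted p = 0.173). Without Ctrl mouse 1 or Ctrl mouse 4 at 4 wks it was 5.02 (adjusted p = 0.0765) or 4.88 (adjusted p = 0.057), and the call was kept under 16 of 38 alternatives.

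Mt1 showed the same mice apart. It was 0.69, 0.04, 0.12, -0.46 and -2.11 in AggE mice and -3.89, -3.56, -3.34 and -3.15 in Ctrl mice at 24 hrs. The values at 4 wks were -1.88 and -1.95 in Ctrl mice 1 and 4 and -4.41 to -3.70 in the other Ctrl mice, and -4.40 to -3.31 in AggE mice. AggE mouse 5, which was also lowest for Saa3, was lowest for both metallothioneins at 24 hrs. It was the only mouse of its group on its slide, as AggE mice 1 to 4 shared another, so mouse and slide cannot be told apart. The difference of the changes was 3.53 ± 0.69 (adjusted p = 0.0263). It was 3.24 (adjusted p = 0.0636) without Ctrl mouse 1 and 3.25 (adjusted p = 0.057) without Ctrl mouse 4 at 4 wks, and its call was lost under 16 of 38 alternatives.

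Apoa4, an apolipoprotein of intestine and liver, and Ifi27l2b, an interferon-inducible gene, completed the genes with a higher change at 24 hrs. Apoa4 was 2.62, 3.52, 3.12, 4.09 and 3.65 in AggE and 1.72, 0.16, 0.35 and 0.84 in Ctrl mice at 24 hrs, and at 4 wks 0.44 to 0.78 in AggE and 0.17 to 0.54 in Ctrl mice. Its AggE mean fell by 2.76 ± 0.23 (6.78-fold, adjusted p = 1.41e-09). The change at 4 wks was 0.32 (95% interval -0.12 to 0.76), the same direction as at 24 hrs. Ifi27l2b was 2.73 to 3.40 in AggE and 0.72 to 1.53 in Ctrl mice at 24 hrs, and 0.70 to 1.23 and 0.54 to 1.48 at 4 wks. Its AggE mean fell by 1.96 ± 0.20 (adjusted p = 2.2e-07) and its Ctrl mean differed by 0.08 ± 0.21 (unadjusted p = 0.708). The differences of the changes were 2.31 ± 0.33 and 2.04 ± 0.30 (adjusted p = 0.000543 for both). The Ifi27l2b value was 0.67 with processed signals (adjusted p = 0.992) and 0.08 with the deposited log ratios (adjusted p = 0.998), and its call was lost under 5 of 38 alternatives, as was that of Apoa4.

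**Figure D2:**
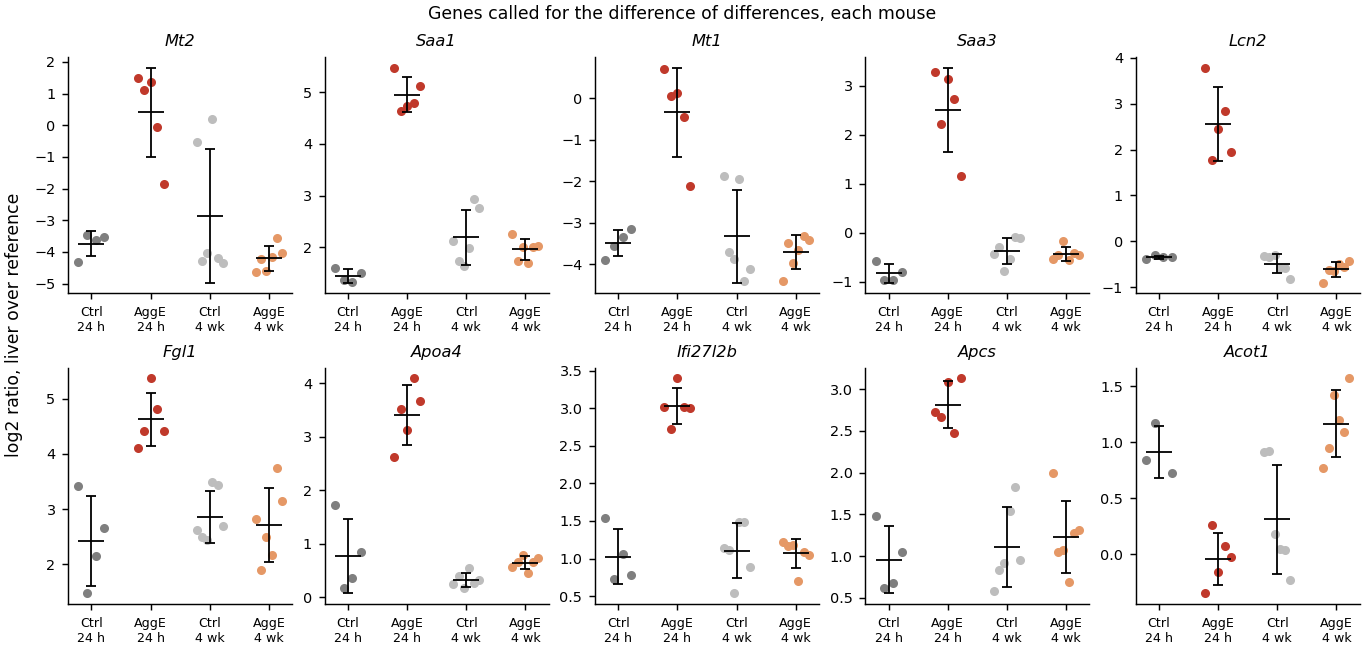
Normalized log2 ratio of liver to reference (y axis) in each mouse for the 10 called genes, by group (4 Ctrl and 5 AggE mice at 24 hrs, 6 and 6 at 4 wks; 1 Ctrl spot of Acot1 at 24 hrs is missing); bars give the mean and the SD. In 9 genes the AggE mice at 24 hrs stand above the Ctrl mice and the AggE mice at 4 wks do not, a pair of Ctrl mice at 4 wks is high for Mt1 and Mt2, and Acot1 is low in AggE mice at 24 hrs and high in them at 4 wks.

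Acot1, a cytosolic acyl-CoA thioesterase and PPARα target, was the only called gene that reversed direction, that is, had opposite signs at the times and an unadjusted p within 0.05 at each. At 24 hrs it was -0.35, 0.26, -0.16, 0.07 and -0.02 in AggE mice and 0.84, 1.18 and 0.73 in Ctrl mice 1, 2 and 4, the spot of Ctrl mouse 3 being an outlier spot that was left out. At 4 wks it ran from 0.77 to 1.57 (median 1.14) in AggE mice and was 0.91, 0.92, 0.18, 0.05, 0.04 and -0.23 in Ctrl mice 1 to 6. The groups did not overlap at 24 hrs and overlapped at 4 wks through Ctrl mice 1 and 2. The change was log2 -0.95 ± 0.26 at 24 hrs (unadjusted p = 0.000958, adjusted p = 0.505) and 0.85 ± 0.21 at 4 wks (unadjusted p = 0.00025, adjusted p = 0.0242). Of the group means, that of AggE rose by 1.21 (2.31-fold, adjusted p = 0.000719), whereas that of Ctrl differed by -0.60 (unadjusted p = 0.0238), the opposite way. On the slide that held both groups at 4 wks, AggE mouse 1 was 0.82 above the mean of Ctrl mice 4 to 6, and with the slide as a fixed block the change at 4 wks was 0.76 ± 0.29 and no longer passed adjustment (adjusted p = 0.139). The difference of the changes was -1.81 ± 0.34 (adjusted p = 0.019) and it was called under 27 of 38 alternatives.

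Across all genes, 26 (0.142%) had opposite signs and reached an unadjusted p of 0.05 both times, 9 higher at 24 hrs and lower at 4 wks and 17 the other way, and 0 had an adjusted p of 0.05 or less at both times in limma. None of the 26 reached 2-fold at both times (0 genes), and 4 were past 2-fold in the difference. The Ctrl mean moved at an unadjusted p of 0.05 in 20 of them and the AggE mean in 14, and in 7 both moved, in opposite directions. Of all genes, 515 (2.82%) at 24 hrs and 4095 (22.4%) at 4 wks had an unadjusted p of 0.05 or less. Without AggE mouse 1 at 4 wks the count was 50, without AggE mouse 2 at 4 wks it was 17, and without Ctrl mouse 2, AggE mouse 4 or AggE mouse 5 at 24 hrs it was 46, 42 and 44.

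After Acot1, the largest of these were Fam25c, Gstm4, Retsat, Limd2, Cp, Itpr2, Nampt, Fcgr1 and Col3a1. Fam25c was 0.77 higher at 24 hrs and 0.90 lower at 4 wks (log2). Gstm4, a glutathione S-transferase, was -0.59 and 0.56, and Retsat, which saturates retinol, was -0.55 and 0.53; in both the Ctrl mean carried the difference, with log2 -0.81 and -1.08 from 24 hrs to 4 wks against 0.34 and 0.00 for AggE. On the shared slide at 4 wks their AggE mouse was -0.03 and -0.26 from the Ctrl mice. Ceruloplasmin (Cp), a copper-carrying acute phase protein, was 0.44 and -0.39, with a difference of -0.61 between the AggE means of the times (adjusted p = 0.0155). Limd2 and Fcgr1, a high-affinity receptor for IgG of macrophages, reached an adjusted p in the difference of 0.0296 and 0.00896 without reaching 2-fold (0.94, with -0.10 for the other probe of Limd2, and 0.65), and Fcgr1 was 0.28 at 24 hrs and -0.37 at 4 wks (adjusted p = 0.00874, or 0.0525 with the slide as a fixed block).

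At 2-fold and an unadjusted p of 0.05, 79 genes (0.433%) differed between the times, 50 (0.274%) with a higher and 29 (0.159%) with a lower change at 24 hrs, while 31 genes (0.17%) passed the same limits at 24 hrs and 56 (0.307%) at 4 wks. Of the 50, the AggE mean moved in 20, the Ctrl mean in 2 and neither in 28. Of the 29, the AggE mean moved in 2, the Ctrl mean in 21 and neither in 6. None of the 79 had both means called (0 genes). The AggE mean made the larger movement in 31 of the 50 and the Ctrl mean in 25 of the 29. The sign of AggE minus Ctrl differed between the times in 42 of the 50 and 26 of the 29, but only 1 and 3 of them reached an unadjusted p of 0.05 both times. These were Fam25c, and Acot1, Gstm4 and Retsat.

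**Figure D3:**
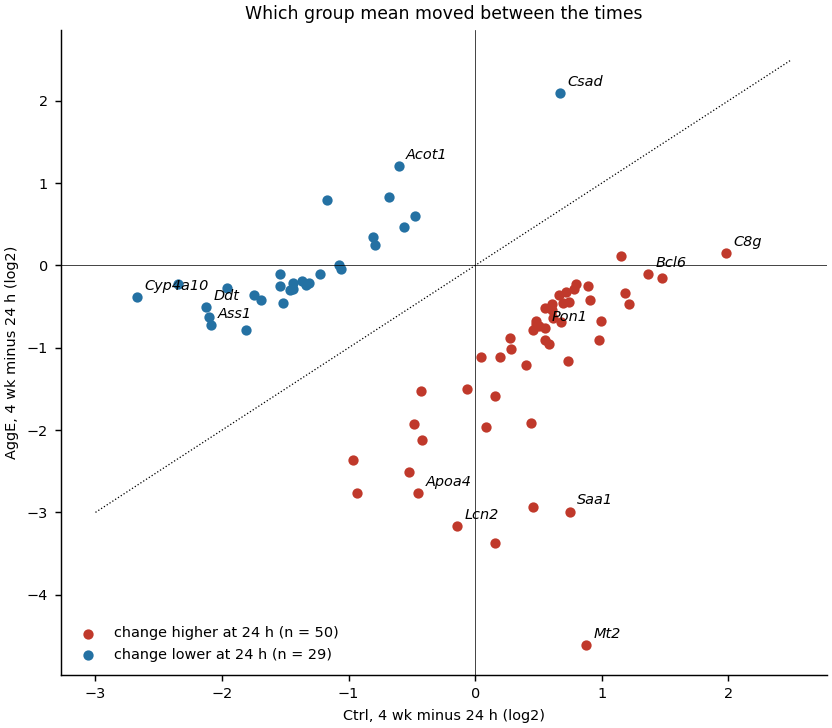
Movement of the Ctrl mean (x axis) and of the AggE mean (y axis) from 24 hrs to 4 wks (log2) for the 79 genes, 50 with a higher change at 24 hrs and 29 with a lower one; on the dotted line both means move equally. Genes with the largest higher changes at 24 hrs lie low on the y axis near 0 on the x axis, and most of those with a lower change lie far to the left near 0 on the y axis.

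Cyp2b9, Cyp2b13, Acnat2 and Csad are given as further genes with a called AggE mean, chosen after their values were seen. Cyp2b9, a target of the receptor CAR, was 4.71, 4.19, 4.95, 4.27 and 4.26 in AggE and 2.76, 3.18, 3.01 and 2.72 in Ctrl mice at 24 hrs, with no overlap. At 4 wks it ran from 0.95 to 2.25 in AggE and from 0.98 to 3.55 in Ctrl mice. Its AggE mean fell by 2.77 (adjusted p = 6.78e-05) and its Ctrl mean was lower by the same sign (-0.94, unadjusted p = 0.0325), and the gene's other probe gave a difference of changes of 0.21 against 1.83. Cyp2b13, a near-identical paralog whose probe may share its signal, fell by 2.36 in AggE mice and Acnat2 by 2.12 (adjusted p = 0.000224). Csad, an enzyme of taurine synthesis that decarboxylates cysteine sulfinate, moved the other way. It was -0.33, 0.23, 0.38, 0.76 and 1.06 in AggE against 1.79 to 2.30 in Ctrl mice at 24 hrs, and 1.89 to 3.07 against 2.12 to 3.03 at 4 wks, so that its AggE mean rose by 2.09 (adjusted p = 7.33e-05). Its difference of changes was -1.42 ± 0.45 (unadjusted p = 0.00302, adjusted p = 0.401).

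The 21 genes with a lower change at 24 hrs and a fallen Ctrl mean had a median change of -0.30 at 24 hrs, where 1 (Retsat) reached an unadjusted p of 0.05, and a median of 1.07 at 4 wks, where 21 of 21 were positive and 19 reached that p (515 genes, 2.82%, and 4095 genes, 22.4%, of all at the times in turn). They were chosen on these same values, so the counts describe them and nothing is read from the shares, here or for the slides. They included Cyp4a10 (fatty acid ω-hydroxylation), Ddt (D-dopachrome tautomerase), Cideb (lipoprotein assembly), Ass1 (urea cycle), Gpx1 (reduction of hydrogen peroxide), Cyp27a1 (bile acid synthesis), Fdps (isoprenoid synthesis) and Slc25a1 (the mitochondrial citrate carrier). Gpx1 was 2.92, 2.70, 2.96 and 3.00 in Ctrl mice at 24 hrs and 2.58 to 2.95 in AggE mice, so that the groups overlapped. At 4 wks it was 2.30, 2.46 and 0.88 in Ctrl mice 1 to 3, 0.34, 0.33 and 0.93 in Ctrl mice 4 to 6, 0.19 in AggE mouse 1 and 2.65 to 2.97 in AggE mice 2 to 6. The low values were thus those of the slide that held Ctrl mice 4 to 6 and AggE mouse 1, and that of Ctrl mouse 3.

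Over the 21 genes, the median of Ctrl mice 4 to 6 minus Ctrl mice 1 to 3 was -0.93 (0.01 over all genes), with Ctrl mice 4 to 6 lower in 19 of 21 (90.5%, and 48.5% of all genes), values that took part in choosing the genes. Within the shared slide, AggE mouse 1 minus Ctrl mice 4 to 6 had a median of 0.06 over the 21 genes, and was under 0.5 in 18 of them, Gstm3 being lowest at -1.57, and 1 or more in 2. Those 2 were Cyp4a10 (1.29) and Acad11 (1.49). Cyp4a10 was 3.46 to 4.01 in Ctrl and 2.34 to 3.62 in AggE mice at 24 hrs, and 0.25 to 2.02 in Ctrl and 2.08 to 3.65 in AggE mice at 4 wks, where the groups did not overlap. Its Ctrl mean fell by 2.67 ± 0.35 and its AggE mean differed by -0.38 ± 0.33, and its difference of changes was -2.29 ± 0.49 (adjusted p = 0.0701), while its other probe gave -0.76. For Ddt the within-slide value was 0.41 against 1.25 over all mice, for Ass1 0.06 against 1.24, and for Cideb -0.04 against 1.08. With the slide as a fixed block, where 1 AggE mouse shares a slide with Ctrl mice, the change at 4 wks was 0.37 for Ddt (adjusted p = 0.699), 0.24 for Ass1 (adjusted p = 0.865), -0.12 for Cideb (adjusted p = 0.942) and 1.19 for Cyp4a10 (adjusted p = 0.193). With the 3 Ctrl mice of the first slide left out, 222 genes passed the same limits for the difference, and with those of the second left out 66 did.

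**Figure D4:**
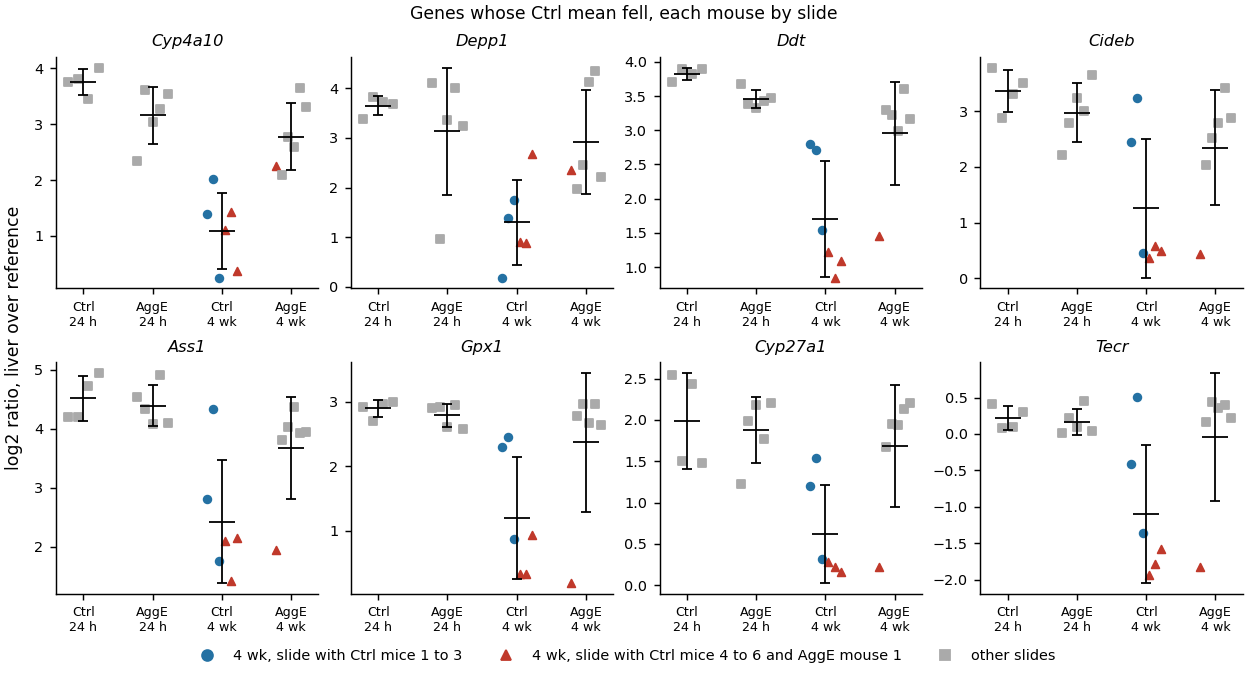
Normalized log2 ratio of liver to reference (y axis) in each mouse for 8 genes whose Ctrl mean fell from 24 hrs to 4 wks, by group, with the slide of the 4 wk arrays shown by symbol; bars give the mean and the SD. Except for Cyp4a10 and Depp1, AggE mouse 1 (red triangle) lies with the Ctrl mice of its slide and apart from the other AggE mice at 4 wks.

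Of the 28 genes with a higher change at 24 hrs and neither mean called, 28 were lower in AggE mice at 4 wks by sign, 21 with an unadjusted p of 0.05 or less, while 5 had such a p at 24 hrs (4095 genes, 22.4%, and 515 genes, 2.82%, of all). These genes too were chosen on the difference made of these values, and nothing is read from the shares. In 27 of them the AggE estimate was negative and the Ctrl estimate positive from 24 hrs to 4 wks, each under the limits. They included Pon1 (an HDL-bound esterase), Saa4 (constitutive serum amyloid), Afm (afamin), Hc (complement C5) and Mbl1 (mannose-binding lectin), named after their values were seen. Pon1 was 6.82 to 7.44 in AggE and 6.95 to 7.69 in Ctrl mice at 24 hrs. At 4 wks it was 6.11, 5.31, 5.54, 7.03, 7.13 and 7.43 in AggE mice 1 to 6 and 7.37 to 8.20 in Ctrl mice, the first 3 AggE mice being lower than every mouse at 24 hrs. The change was -0.01 at 24 hrs and -1.32 ± 0.31 at 4 wks (unadjusted p = 0.000142), and the difference of the changes was 1.31 ± 0.47 (adjusted p = 0.453). In C8g, a complement subunit whose Ctrl mean rose by 1.98, Ctrl mouse 3 at 24 hrs was at 0.11 and the other Ctrl mice between 5.10 and 5.78, so the movement rests on that mouse.

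The lists of genes place these members in their pathways, as counts and medians without a test of the list. Of 31 acute phase genes measured, 10 had a higher and 0 a lower difference of changes at 2-fold and an unadjusted p of 0.05, against 0.274% higher and 0.159% lower of all genes (Apcs, Fgl1, Hamp2, Lcn2, Orm2, Orm3, Saa1, Saa2, Saa3 and Saa4), the AggE mean fell in 10 and the Ctrl mean in 1 (0.575% and 0.986% of all genes were called in either direction), and the median difference of changes was 0.74 (-0.00 over all genes), made of 0.35 at 24 hrs and -0.23 at 4 wks. Il1r1 and Cp lay nearest to that median. Among 28 complement and coagulation genes the median was 0.72 (0.21 at 24 hrs and -0.53 at 4 wks), with 3 higher (C8a, C8g and Mbl1) and 0 lower. Their mean log2 ratio at 4 wks was 3.75, 3.42, 3.82, 4.51, 4.47 and 4.62 in AggE mice 1 to 6 and 4.32 to 4.90 in Ctrl mice, so AggE mice 1 to 3 were low. The hepatocyte markers were lowest in the same 3 mice (4.81, 4.68 and 4.96, against 5.30 to 5.79 in Ctrl mice), as were the acute phase genes (2.59, 2.45 and 2.82). Their part in these medians was not tested. Without AggE mouse 2 at 4 wks the acute phase median at that time was -0.12. The negative acute phase genes, which usually fall in inflammation, also had a positive median (0.47), with Apoa4 and Pon1 past the limits of 12. Of 14 genes of metallothioneins and zinc transport, Mt1 and Mt2 passed and the list median was -0.06, with 7 of the 14 positive.

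PPARα targets and genes of ketogenesis had the most negative median (-0.34 over 31 genes, -0.17 at 24 hrs and 0.11 at 4 wks), with 6 of 31 positive. Acot1 and Cyp4a10 passed, both lower, and the Ctrl mean fell in 5 of the 31 while the AggE mean rose in 1. Cyp4a10, like Slc25a1, Fdps, Ass1, Cyp27a1 and Gstm3 below, is among the 21 genes with a fallen Ctrl mean whose values by slide are given above. Of all genes, 0.274% were higher and 0.159% lower in the difference of changes, the background of each list count here, and 0.986% and 0.575% had a called Ctrl and AggE mean, in either direction. Genes of fatty acid synthesis had a median of -0.27 with Slc25a1 lower, and of 24 genes of cholesterol synthesis Ebp was higher and Fdps lower, with a median of -0.09. Of 18 CAR and PXR targets Cyp2b9 and Cyp2b13 were higher, of 30 urea cycle and amino acid genes Cdo1 and Uroc1 were higher and Ass1 and Csad lower, and of 17 bile acid genes Cyp27a1 and Cyp8b1 were lower. In 20 immediate early and growth arrest genes 0 passed the limits, and 20 of 20 had a positive difference of changes, with a median of 0.51, made of 0.00 at 24 hrs and -0.39 at 4 wks. Ctrl mouse 4 at 4 wks stood apart here, with a list mean of -0.39 against -1.70 to -1.30 in the other Ctrl mice, and without it the median was 0.26 (-0.21 at 4 wks) and 19 of 20 were positive. This Ctrl mouse was also one of the pair with high Mt1 and Mt2. AggE mice 1 to 3 at 4 wks were low for this list too (-2.103, -2.062 and -2.025). AggE mice 4 to 6 were at -1.66, -1.60 and -1.38. The joint part of the 3 low AggE mice in the list median was not tested. Glucocorticoid receptor targets (18 genes, median 0.08), targets of cytokines and lipopolysaccharide (29 genes, median 0.11) and genes of the cell cycle (25 genes, median 0.43) had 0 members past the limits. Of the other lists, those of clock genes, male-biased genes, gluconeogenesis, endoplasmic reticulum stress and oxidative phosphorylation had 0 members past the limits. AhR and NRF2 targets had Gstm3 lower, heat shock chaperones Hspb1 lower, interferon genes Iigp1 higher, the growth hormone axis Bcl6 higher, and 21 female-biased genes 3 higher and 1 lower with a median of 0.03. The female-biased members were Acnat2, Cyp2b9 and Cyp2b13 (higher) and Cyp4a10 (lower). Cyp2b9, Cyp2b13 and Cyp4a10 are thus also counted in other lists above.

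**Figure D5:**
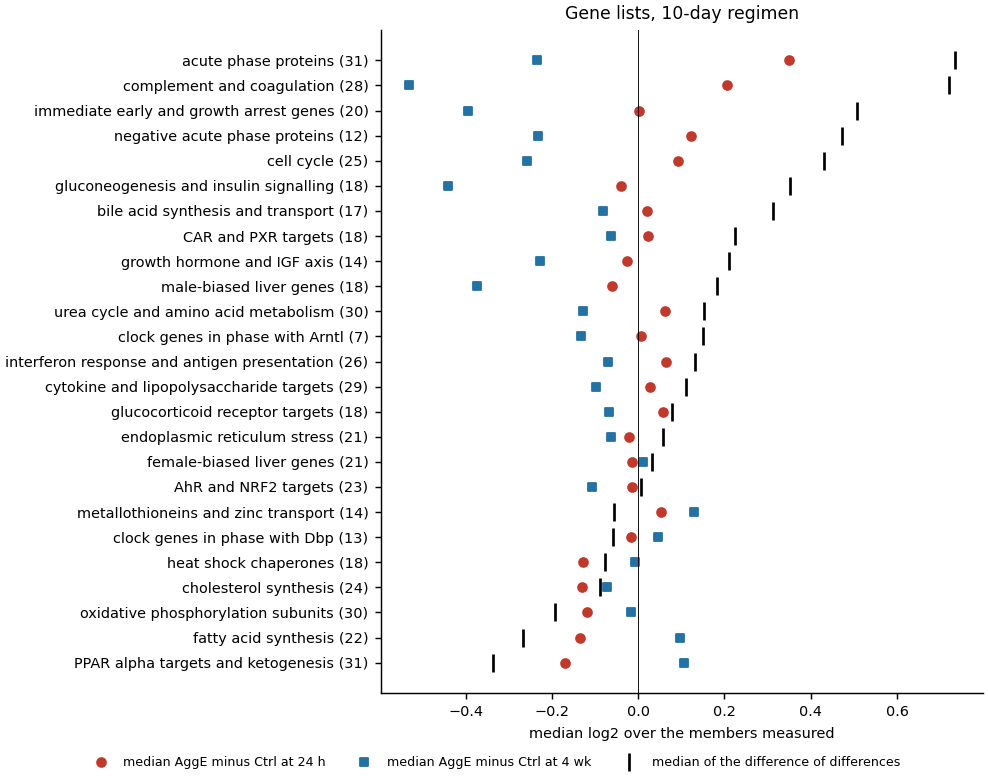
Median log2 change over the measured members of each of 25 gene lists (number of members in parentheses), for AggE minus Ctrl at 24 hrs (circles) and at 4 wks (squares), and the median of the difference of differences (bars). Acute phase and complement genes have the highest medians, 0.74 and 0.72, and PPARα targets the lowest, -0.34.

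Markers of other cells were read beside these results. Of 13 Kupffer cell markers, the resident macrophages of liver, Marco, Cd5l and Clec4f were higher and 0 were lower (0.274% and 0.159% of all genes), and their mean log2 ratio per mouse ran from 1.13 to 1.77 in Ctrl and from 1.76 to 2.07 in AggE mice at 24 hrs, and from 1.46 to 1.97 and from 1.33 to 1.81 at 4 wks. Marco was 2.33 to 3.10 in AggE and 0.54 to 2.02 in Ctrl mice at 24 hrs, the 1 marker past the limits at that time. Cd5l overlapped there (4.53 to 4.80 in AggE and 3.47 to 4.66 in Ctrl mice) and was 2.68 to 4.22 against 3.97 to 5.15 at 4 wks, with a change of 0.47 at 24 hrs and -1.13 at 4 wks. Clec4f overlapped too (3.86 to 4.27 and 2.90 to 4.13) and was 2.51 to 4.13 against 3.71 to 4.82 at 4 wks, with changes of 0.43 and -0.81. Of 27 leukocyte markers 0 passed the limits, with means of -0.44 to -0.27 in AggE and -0.43 to -0.32 in Ctrl mice at 24 hrs, and 8 of the 27 were well above background in all 21 livers. Of 12 neutrophil markers 0 passed, and 1 was well above background in all livers. Endothelial, fibroblast, erythroid, pancreas, muscle and adipose markers had 0 past the limits, and of 9 biliary markers Spp1 was higher. Hepatocyte markers had a median difference of changes of 0.48 (0.00 at 24 hrs and -0.37 at 4 wks), and their means ran from 4.68 to 5.68 in AggE and from 5.30 to 5.79 in Ctrl mice at 4 wks. Their part in the differences of single genes was not tested.

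The course after 10 days was compared with that after the 5-day stressor, in which AggE and Ctrl mice were measured at 24 hrs and 1.5 wks (18 mice). These groups follow the source names, although the titles of 6 of the 18 carry a code with 10 and the descriptions of 5 others begin with a stress of 1 day. The rest periods differ in length, so the values are set side by side, without their errors. At 24 hrs of the 5-day regimen too, no slide held both groups. In Cy5, 14.8% to 47.3% of probes on the 5-day arrays were well above background. AggE mouse 2 (47.3%) and Ctrl mouse 4 (40.5%) at 1.5 wks were scanned on another day than the other 5-day mice. The 9 genes with a higher change at 24 hrs had a positive difference in the 5-day regimen too, with 3.85 for Saa1, 4.32 for Saa3, 4.63 for Mt2, 3.92 for Mt1, 2.76 for Fgl1, 1.96 for Apoa4, 2.06 for Ifi27l2b and 2.16 for Apcs, and Acot1 had -1.18. No size is given for Lcn2, whose probe was well above background in 0 of 4 Ctrl livers at 24 hrs of that regimen too. The difference between the regimens, tested in the same fit, was called for 0 genes after adjustment in limma, and 99 genes (0.542%) were past 2-fold at an unadjusted p of 0.05, none of the 10 among them. Pon1 was one of the 99, with -1.10 after 5 days and 1.31 after 10 days (difference 2.42, unadjusted p = 0.00136), and so was Clec4f, with -0.62 and 1.24 (difference 1.86, unadjusted p = 0.0154).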

How the data were processed

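Liver RNA of 39 mice was hybridized, each to 1 dual dye array, and 21 mice formed the 4 groups compared. The authors deposited, per spot, median intensities of the spots and their local backgrounds, read by Feature Extraction 11.5.1.1 without normalization, and a second set of processed intensities. The deposited log10 ratios of the whole series were made by Feature Extraction from the processed intensities. From the medians, background was corrected with normexp (offset 50), arrays were loess-normalized and then quantile-normalized in limma 3.58.1 (R 4.3.3, statmod 1.5.0, and version 1.17.8 of the package data.table). Outlier spots were set to missing and controls left out.

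One limma fit to all 39 arrays held a mean for each of 8 groups. The 25903 RefSeq probes were adjusted together (Benjamini-Hochberg), and each of 18259 genes entered by its probe of highest mean signal, 17016 of them with a RefSeq symbol. A mean was said to move between the times at 2-fold and an adjusted p of 0.05. Named genes were the called genes, up to 10 reversing genes, called list members, the Saa, Lcn2 and Mt genes that the study names, and the list members nearest each list's median. Genes past the unadjusted limit were named after their values were seen. The genes, 25 pathway lists and 11 marker lists were chosen with earlier results of these data known. Leukocyte, endothelial, fibroblast, biliary, erythroid, pancreas, muscle and adipose markers were read with the others.

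The number of arrays limits the precision, the labels call the mice biological replicates, and no array was a copy of another (highest correlation 0.986). Same-numbered mice did not deviate together, so no pairing was used. The fit was tested on simulated data with independent noise in each array and no slide effect, so the test does not cover the correlation within slides. Alternatives were other background corrections, scalings, probe filters, fits, limits on p and fold, and leaving out arrays; those that leave out slides at 4 wks, and single mice from the list medians, were added after seeing the data.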

Additional observations from a re-analysis of the deposited data

Results flagged for a closer look

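The difference between the changes at 24 hrs and 4 wks, tested itself (limma, Benjamini-Hochberg adjusted), set 10 genes apart. It was 5.49 on the log2 scale for Mt2 (adjusted p = 0.0319), 3.74 for Saa1, 3.53 for Mt1, 3.39 for Saa3, 2.35 for Fgl1, 2.31 for Apoa4, 2.04 for Ifi27l2b, 1.74 for Apcs and -1.81 for Acot1. For Lcn2 the fitted value was 3.02, but its probe was not well above background in any of the 4 Ctrl livers at 24 hrs, so its size is not set beside the others.

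Single mice lay far from the others of their group in 7 of 83 group-wise checks with Dixon's criterion, where chance gives about 1 in 20. They were Ctrl mouse 2 at 24 hrs for Col3a1 (-3.36), AggE mouse 1 at 24 hrs for Fam25c (5.81), AggE mouse 1 at 4 wks for Gstm4 (0.58), AggE mouse 4 at 4 wks for Ifi27l2b (0.70), Ctrl mouse 2 at 4 wks for Itpr2 (0.74) and AggE mouse 3 at 4 wks for Saa3 (-0.16), all log2 ratios. Ctrl mouse 6 at 4 wks had 70.1% of its probes well above background. The pair of Ctrl mice at 4 wks with high Mt1 and Mt2 was not met by this criterion, which looks at 1 mouse at a time.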

How the results depend on the processing

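The direction of the difference of changes held for the 10 called genes under all 38 alternatives run for each, but the calls did not. With the slide as a random block, the counts were 0 for the difference, 6 at 24 hrs, 2 at 4 wks, 51 and 6 for the AggE and Ctrl means between the times, 0 and 4 for the reversals (called genes, all genes) and 40 for the difference at an unadjusted p. The main counts were 10, 16, 22, 105, 180, 1, 26 and 79. Without normalization between arrays, or with Aquantile, which leaves ratios as they are, they were 4, 7, 120, 38 and 316, and 2 called genes reversed. Processed signals gave 5, 7 (4 wks), 275, 1347 and 526, and the deposited log ratios gave 54 (4 wks), 1032 and 1621, with 2 and 42 reversals and 754. Without background correction the counts were 229 and 452 for the means, 2 reversals and 120, and with an offset of 16 they were 202, 313 and 134. Cy5 alone gave 16 for the difference, 1 at 4 wks, 52 for AggE, and 5 and 42 reversals. Array weights gave 28, 52 at 4 wks, and 8 and 114 reversals. Probes well above background gave 35 at 4 wks, all noncontrol probes 164 for AggE and 47 reversals, and only the 4 groups 3 and 42 reversals. With no limit on the fold the counts were 733 at 4 wks, 2628 and 1847 for the means and 3 reversals, and at an unadjusted p 79, 31 and 56, 99 between regimens and 4 reversals. The slide as a fixed block gave 61 at 4 wks and could not be fitted at 24 hrs.

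Leaving out 1 mouse gave 5 to 23 for the difference, 12 to 18 at 24 hrs, 5 to 77 at 4 wks, 78 to 133 and 134 to 240 for the means, 0 to 5 and 17 to 50 reversals, 65 to 133 at an unadjusted p and 0 to 0 between regimens. The 23 was without AggE mouse 1 at 4 wks, and the 5 without Ctrl mouse 2 or AggE mouse 3 at 24 hrs; it was 6 without Ctrl mouse 3 at 24 hrs or AggE mouse 3 or 4 at 4 wks. At 4 wks the count was 74, 9, 9, 13 and 14 without Ctrl mice 2 to 6 and 77, 6, 5, 36 and 44 without AggE mice 1, 2, 3, 4 and 6 of that time. Without the Ctrl mice of the first slide the counts were 29, 142 at 4 wks, 353 for Ctrl, 1 between regimens, 3 and 47 reversals and 222. Without those of the second slide the count at 4 wks was 4, and without the whole shared slide it was 5, with 44 reversals. The sign turned for Saa2 (-0.55) and Fam25c (-0.33) with processed signals and for Fam25c (-0.34) with the deposited log ratios. The causes were not tested.

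The replicate block, with the number of the mouse as a term, gave 11 for the difference, 14 at 24 hrs, 19 at 4 wks, 123 and 158 for the means, 0 between regimens, 1 and 24 reversals and 79 at an unadjusted p. It changed none of the 10 calls. Same-numbered mice correlated at -0.244 to 0.124 at 24 hrs and -0.44 to 0.223 at 4 wks, so the numbers do not pair them. Probes near background limit the precision, and at 24 hrs fewer probes were above it.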
